A study of Rattus norvegicus with 17 samples.

Results

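The mucins and trefoil peptides of the colon lining were followed in HLA-B27 transgenic rats on 2 calcium diets. The set was defined by name as Muc1, Muc2, Muc3, Muc4, Muc13, Tff1, Tff2 and Tff3, and its members were all array probes, control spots left out, that carried 1 of these 8 gene names. The rule found 12 probes for 7 members, out of 27101 tested probes that stand for 23190 gene names: 1 secreted mucin (Muc2, 1 probe), 3 membrane mucins (Muc1 and Muc13 with 1 probe each, Muc4 with 5) and 3 trefoil peptides (Tff1 and Tff2 with 1 probe each, Tff3 with 2). Muc3 had no probe under its own name. A probe that the array names LOC687030, and whose gene ID the RefSeq table lists as Muc3, is described beside the members and is not counted among them.

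The rats were females of the inbred Fisher 344 strain that entered the experiment at 8 to 10 weeks of age. All of them, in both groups, carried transgenes for human HLA-B27 and β2-microglobulin, which cause colitis in rats. The high calcium group (8 rats) ate 120 mmol calcium per kg of diet and the low calcium group (9 rats) ate 30 mmol per kg, in a purified diet of Western composition in which the added calcium replaced glucose. There was no rat without the transgenes, so every value below is from an animal of a colitis model. Each rat's mucosal scraping was labelled with Cy5 and hybridised against a Cy3 pool of all animals, so a value is the log2 ratio of that rat to the pool, and 0 is the pool's level. A difference is high minus low calcium on this log2 scale, with the standard error (SE) and 95% interval of the limma fit. Rats are named by the number in their label.

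Mucus covers the colon as a gel whose scaffold is MUC2, a large secreted glycoprotein made by goblet cells and joined into nets through its disulphide-bonded ends. Membrane mucins such as MUC1, MUC4 and MUC13 stay anchored in the apical membrane of epithelial cells, where they form the glycocalyx below the gel. Trefoil peptides are small secreted proteins held in a three-leaved fold by disulphide bonds; TFF3 is packed with MUC2 in intestinal goblet cells, while TFF1 and TFF2 are known chiefly from the surface and the glands of the stomach, and all are linked to the repair of damaged epithelium.

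Scraped mucosa is a mixture of cells, and fewer cells of a type cannot be told apart from less RNA per cell. Of 14 colon epithelium markers all 14 were above background, with a mean per rat of -0.15 to 0.30 at high calcium and -0.30 to 0.21 at low calcium. At high calcium 11 of them were higher and 3 lower, against 54.3% higher of all tested genes, with a median difference of 0.08 and 1 (higher) at an unadjusted p under 0.05. Of 12 leukocyte markers 10 were tested, and 9 of them were lower at high calcium, as were 10592 of all 23190 tested genes. Of these 9, 4 had an unadjusted p under 0.05, against 4.91% of all tested genes. The leukocyte mean per rat was -0.39 to 0.06 at high calcium and -0.20 to 0.33 at low calcium. Of 9 smooth muscle markers 6 were tested, with a mean per rat of -0.29 to 0.18 at high calcium and -0.33 to 0.18 at low calcium. At high calcium 3 of these were higher and 3 lower. An unadjusted p under 0.05 was found for 1 each way, against 4.13% (higher) and 4.91% (lower) of all tested genes. Median Cy5 signal was 146.8 to 180.8 per array, and 60.0% to 72.0% of probes were well above background. Precision is set by how many rats there were.

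Promoters are shown for the pair of goblet cell products with the smallest p among the members, Muc2 and Tff3. They are also shown for Muc4 and Muc13, the pair of membrane mucins whose brightest probes varied most closely together from rat to rat. RefSeq on GRCr8 listed promoters for Muc1, Muc2, Muc3, Muc4, Muc13 and Tff3. Each window runs from 250 bases before the annotated start to 50 bases after it, 5′ to 3′ on the gene's own strand, with the letters TATAA in capitals on whichever strand they occur. The Muc2 window lies at chr1:206228785-206229084 on the plus strand and the Tff3 window at chr20:9199284-9199583 on the minus strand. The Muc4 window lies at chr11:81558265-81558564 and the Muc13 window at chr11:80485357-80485656, both on the minus strand.
Muc2: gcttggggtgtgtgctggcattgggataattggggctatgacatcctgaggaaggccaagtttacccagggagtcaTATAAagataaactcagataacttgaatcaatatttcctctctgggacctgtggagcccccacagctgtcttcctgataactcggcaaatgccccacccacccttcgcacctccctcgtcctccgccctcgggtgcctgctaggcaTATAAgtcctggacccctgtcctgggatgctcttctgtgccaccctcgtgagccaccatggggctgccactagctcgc
Tff3: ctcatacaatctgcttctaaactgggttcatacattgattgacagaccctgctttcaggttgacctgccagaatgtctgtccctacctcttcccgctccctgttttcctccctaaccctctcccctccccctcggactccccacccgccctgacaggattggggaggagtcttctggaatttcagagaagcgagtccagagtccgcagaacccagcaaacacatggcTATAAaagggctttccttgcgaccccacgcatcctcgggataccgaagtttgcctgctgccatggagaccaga
Muc4: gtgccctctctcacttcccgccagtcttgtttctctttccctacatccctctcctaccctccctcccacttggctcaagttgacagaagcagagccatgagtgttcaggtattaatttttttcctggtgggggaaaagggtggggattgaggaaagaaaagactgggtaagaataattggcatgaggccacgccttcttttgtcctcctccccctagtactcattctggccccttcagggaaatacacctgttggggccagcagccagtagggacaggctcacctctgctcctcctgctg
Muc13: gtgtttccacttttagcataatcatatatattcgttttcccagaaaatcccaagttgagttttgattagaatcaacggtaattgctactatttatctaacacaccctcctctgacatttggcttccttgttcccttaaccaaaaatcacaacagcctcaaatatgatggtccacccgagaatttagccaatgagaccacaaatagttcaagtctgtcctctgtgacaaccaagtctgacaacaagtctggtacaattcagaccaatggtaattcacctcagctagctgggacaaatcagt

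The letters TATAA began at position -28 from the start in Muc2, with another copy at -174, and at position -23 in Tff3. Muc1 also held them, at -33, whereas the Muc4, Muc13 and Muc3 windows did not. Of all 33469 rat promoter windows of this length 26.2% hold TATAA on either strand. Muc2 further held 4 copies of GATAA, letters bound by the Gata family, and 5 of CACCC, letters bound by the Klf and Sp families, counted on both strands; 26.5% and 54.9% of all windows hold at least 1. GATAA was also found in the Muc3 and Muc13 windows, with 1 copy each, and CACCC in all 6 windows, with 4 copies in Muc3, 2 in Muc13 and 1 each in Muc1, Muc4 and Tff3. TTTAT (Cdx family letters) overlaps TATAA where that is followed by an A, and was found in the Muc1, Muc2, Muc3, Muc13 and Tff3 windows, against 42.5% of all windows. CAGCTG, an E-box, occurred once in Muc2 and in 15.1% of all windows. TGTTTAC, the forkhead letters, occurred in none of the 6 windows and in 3.78% of all. Such a match describes the sequence and says nothing of whether a factor is bound there.

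Every one of the 12 member probes had a higher mean at high calcium than at low calcium, but none passed the adjusted threshold of 0.05. The differences ran from 0.08 for Muc13 to 0.29 for Tff3, with Tff2 apart at 0.87. limma's adjusted p over all probes was 0.259 to 0.878 for the members, and 0% of all 27101 probes passed, the smallest adjusted p of any probe being 0.0984. Without high calcium rat 3 there were 193 probes past the threshold and without low calcium rat 16 there were 38, with 0 member probes among them. At an unadjusted p under 0.05 there were 7 member probes higher at high calcium, against 3.95% of all tested probes, and 0 lower, against 4.84%, or 8.79% in either direction. Of all tested probes 54% had a difference above 0. The median difference of the 12 member probes was 0.20, against 0.01 over all tested probes. Counted by gene with the brightest probe, 4 of the 7 members had an unadjusted p under 0.05 and a higher mean at high calcium, against 4.13% of all tested genes. No member probe had all high calcium rats above all low calcium rats, as 0.0148% of all probes did. The count of 7 was 1 with the arrays centred on their median in place of loess, 4 with the mean of the epithelium markers as a covariate, and 1 with the mean of the leukocyte markers as a covariate. The share of all tested probes was counted only in the reported fit. Whether these falls are particular to the members was therefore not tested. Part of the count of 7 repeats the same gene, because Muc4 and Tff3 have several probes each.

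**Figure D1:**
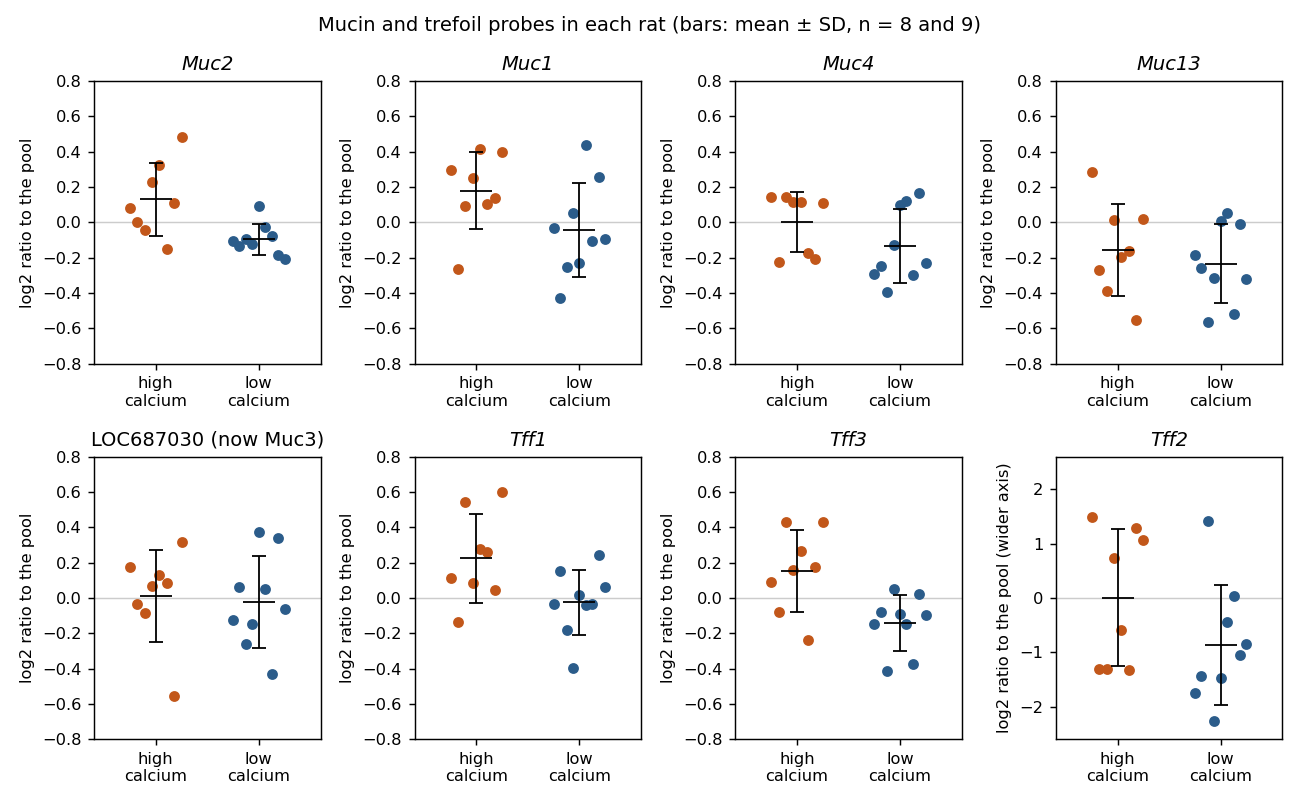
Log2 ratio to the pool in each rat for the 7 members (brightest probe) and the LOC687030 probe, with high calcium rats (orange) left and low calcium rats (blue) right, and the mean ± SD as bars (n = 8 and n = 9). The axis runs from -0.8 to 0.8 except for Tff2, whose rats cover 3.75 log2 units. The Tff3 panel has 6 of the 8 high calcium rats above every low calcium rat, and the diets overlap in every panel.

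**Figure D2:**
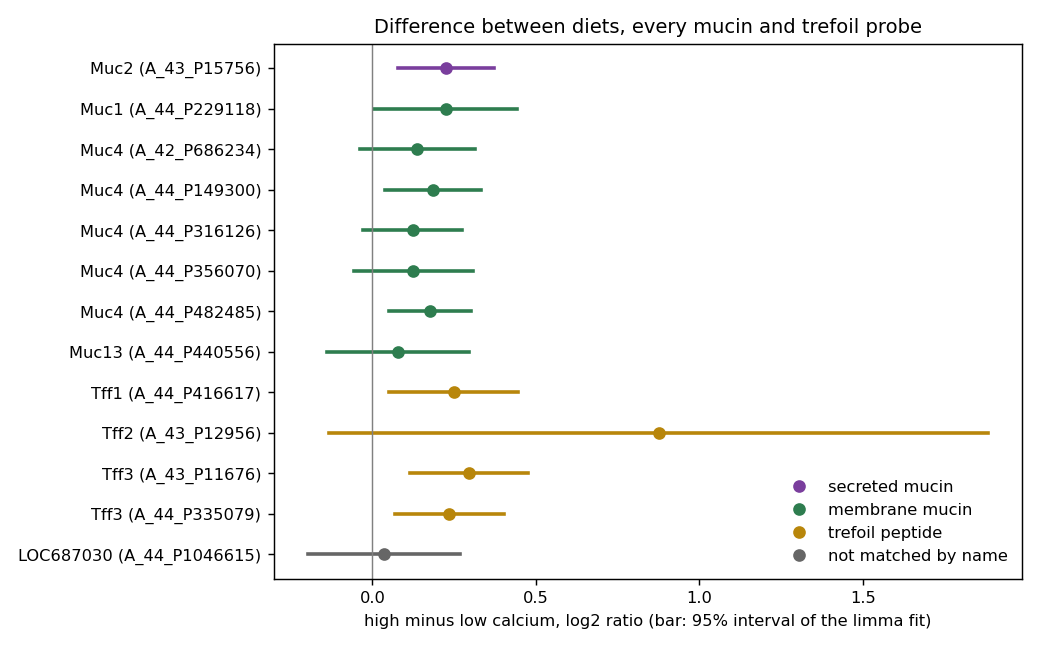
High minus low calcium (log2 ratio) for each of the 12 member probes and the LOC687030 probe, as the point, with the 95% interval of the limma fit as the line, coloured by role. All points lie above 0, and the Tff2 interval, -0.13 to 1.88, is the widest.

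Muc2, the gel-forming mucin of the colon, had 1 probe (accession U07615, with no position in the files). Its lowest, median and highest log2 ratios were -0.15, 0.10 and 0.48 in high calcium rats, against -0.21, -0.11 and 0.09 in low calcium rats. Rats 10, 13, 17 and 18 at high calcium lay above every low calcium rat, and the remaining 4 high calcium rats fell within the low calcium range. The mean was 0.13 ± 0.21 at high calcium and -0.10 ± 0.09 at low calcium (SD, n = 8 and n = 9), a difference of 0.23 ± 0.07 (SE; 95% interval 0.08 to 0.37), or 1.17-fold, with limma's unadjusted p = 0.0044 and adjusted p = 0.311. On each of the 4 slides that hold 2 rats of each diet, high calcium was higher, by 0.21, 0.20, 0.05 and 0.43. With the mean of the leukocyte markers as a covariate the difference was 0.14 ± 0.08 (unadjusted p = 0.109).

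Tff3, the trefoil peptide of intestinal goblet cells, had 2 probes on chromosome 20 (rn3 chr20:9470133-9470189 and chr20:9472138-9472197). The brighter one read -0.24, 0.17 and 0.43 (lowest, median and highest) in high calcium rats and -0.41, -0.09 and 0.05 in low calcium rats. At high calcium 6 of 8 rats lay above every low calcium rat, while rat 3 (-0.08) and rat 14 (-0.24) did not. Its difference was 0.29 ± 0.09 (SE; 95% interval 0.12 to 0.47), or 1.23-fold, with limma's unadjusted p = 0.00261 and adjusted p = 0.259, the smallest of the members. The other probe had 5 high calcium rats above every low calcium rat and a difference of 0.24 ± 0.08 (adjusted p = 0.356). Within the 4 slides the brighter probe differed by 0.09, 0.47, 0.13 and 0.48. Under the leukocyte covariate it differed by 0.23 ± 0.10 (SE; unadjusted p = 0.0394).

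Tff1, the trefoil peptide of the gastric surface epithelium, had Cy5 signals of 182 to 404, on arrays whose median background was 43.5 to 53.5. Its probe (rn3 chr20:9527083-9528214) read -0.14, 0.19 and 0.60 in high calcium rats and -0.40, -0.04 and 0.24 in low calcium rats. Rats 9, 13, 14 and 18 at high calcium were above every low calcium rat. The difference was 0.25 ± 0.09 (SE; 95% interval 0.05 to 0.44), or 1.19-fold (adjusted p = 0.434), and was above 0 on 3 of the 4 slides. From the scanner software's own processed signals it was 0.50, with the epithelium covariate 0.13 (unadjusted p = 0.0656) and with the leukocyte covariate 0.12 (unadjusted p = 0.262).

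Tff2, the trefoil peptide of gastric mucous neck and gland cells, was the member that varied most. Its probe (rn3 chr20:9492568-9492627) covered 3.75 log2 units over the 17 rats, or 13.5-fold, and its SD between rats around the diet means was 1.18, against a median of 0.12 over all tested probes. Only 3 of the 27101 tested probes had a larger one. Its Cy5 signal was 125 to 3132, so its lowest values lay below the median signal of every array, though well above background on all 17; the offset of 50 added in the background correction shrinks the ratios of such dim spots. The other members had ranges of 0.54 to 1.00 over their probes.

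At high calcium Tff2 read 1.48 in rat 2, 1.30 in rat 17, 1.08 in rat 18 and 0.73 in rat 10, but -0.59 in rat 13, -1.30 in rat 9, -1.31 in rat 3 and -1.33 in rat 14. At low calcium it read 1.42 in rat 5, 0.04 in rat 11, -0.44 in rat 8, -0.85 in rat 16, -1.06 in rat 15, -1.44 in rat 4, -1.47 in rat 7, -1.74 in rat 1 and -2.27 in rat 6. High values thus occurred in 4 of 8 high calcium rats and 1 of 9 low calcium rats, with a gap of 0.69 between rat 10 and rat 11 in which no rat fell. The diets overlapped over most of this range, and only rat 2 lay above every low calcium rat.

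The difference between diets for Tff2 was 0.87 ± 0.48 (SE; 95% interval -0.13 to 1.88), or 1.83-fold, with limma's unadjusted p = 0.0857 and adjusted p = 0.649. Within the 4 slides it was 1.23, 0.14, -0.0023 and 1.69. Leaving out single rats moved it between 0.66 and 1.16, the scanner software's processed signals gave 1.30, and with the mean of the leukocyte markers as a covariate it was -0.0045 ± 0.50. The list of 9 stomach markers holds Tff2 itself. Of the others, Muc6, Gkn1, Gkn2, Atp4a and Gif were not above background on enough arrays to be tested. Whether these genes had signal only in the rats with high Tff2 was not tested. Muc5ac, the mucin of the gastric surface, and Pgc, a pepsinogen, differed by 0.05 ± 0.05 and 0.08 ± 0.05, and Atp4b, a subunit of the gastric proton pump, by -0.09 ± 0.04 (SE).

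**Figure D3:**
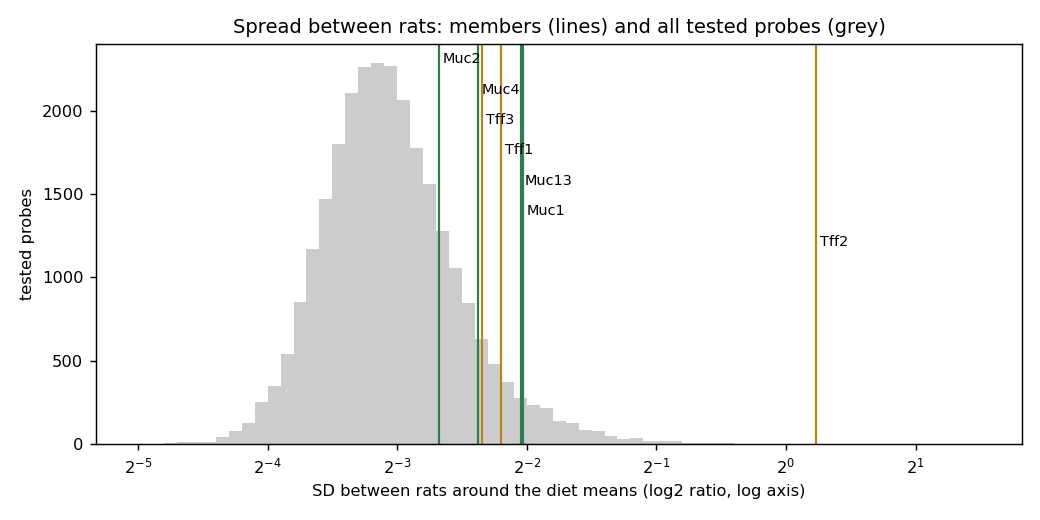
SD between rats around the diet means (log2 ratio, on a log axis) for all 27101 tested probes (grey histogram, number of probes) and for the 7 members by their brightest probe (lines; trefoil peptides in gold, mucins in green). Tff2 stands at 1.18, far right of the other 6 members, which lie between 0.16 and 0.24.

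Reg4, a secreted lectin-like protein of the regenerating family, was among the genes closest to Tff2 in pattern. Over 11476 gene names compared by the correlation of residuals around the diet means in 17 rats, it had r = 0.95 and rho = 0.95. It was picked for being alike, so this correlation describes the pair and carries no p. Without the 2 rats farthest from the median of Tff2, r was 0.92. Since the rats fall on both sides of a gap in Tff2, r was also taken over the 12 rats below it, where it was 0.74; the 5 rats above it are too few.

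The 5 rats with high Tff2 were also the 5 highest for Reg4, which was at least 0.70 in rats 2, 17, 18, 10 and 5 and at most -0.02 in the other 12. This overlap follows in part from how Reg4 was picked, and the gap was set from the Tff2 values themselves. Reg4 read -1.79, 0.03 and 1.81 (lowest, median and highest) in high calcium rats and -1.93, -1.04 and 1.35 in low calcium rats. Its difference was 0.85 ± 0.48 (SE; unadjusted p = 0.0935), and 2 high calcium rats lay above every low calcium rat. Sumf2 followed Tff2 less closely (r = 0.83) and had a diet difference of 0.00 ± 0.04.

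**Figure D4:**
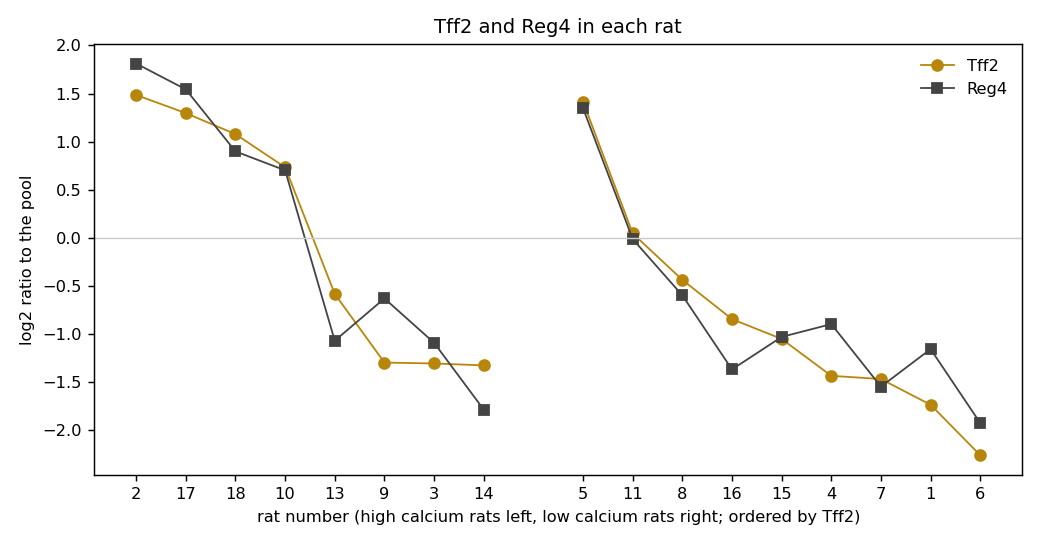
Log2 ratio to the pool of Tff2 (circles) and Reg4 (squares) in each rat, high calcium rats left and low calcium rats right, each ordered by Tff2, with the rat number on the axis. Rats 2, 17, 18 and 10 at high calcium and rat 5 at low calcium lie above 0.6 for both genes.

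Muc1, a membrane mucin with a cytoplasmic tail that takes part in signalling, read -0.26, 0.19 and 0.41 in high calcium rats and -0.43, -0.10 and 0.44 in low calcium rats (rn3 chr2:181352120-181353418). No high calcium rat lay above every low calcium rat, although 7 of 8 exceeded the low calcium median, and low calcium rat 8 was the highest of all. The difference was 0.22 ± 0.10 (SE; 95% interval 0.01 to 0.44), or 1.17-fold, with limma's unadjusted p = 0.0452 and adjusted p = 0.557. It was above 0 on all 4 slides, from 0.16 to 0.28. With single rats left out the unadjusted p was 0.00727 to 0.098.

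Muc4, a very large membrane mucin that binds the receptor ErbB2, had 5 probes, and their differences were 0.12 to 0.18. The brightest (rn3 chr11:69888050-69888109) read -0.22, 0.11 and 0.15 in high calcium rats and -0.40, -0.23 and 0.17 in low calcium rats. High calcium rats 3, 14 and 17 were low and the other 5 stood close together between 0.11 and 0.15, whereas low calcium rats 7, 8 and 15 stood at 0.10 to 0.17. Its difference was 0.14 ± 0.08 (SE; adjusted p = 0.693). A neighbouring probe (chr11:69888329-69888388) differed by 0.13 ± 0.09. The probe for the fragment U06748 differed by 0.18 ± 0.07 (adjusted p = 0.44), with 4 high calcium rats above every low calcium rat, and that for U06749 by 0.12 ± 0.07. The remaining probe of the gene (A_44_P482485) differed by 0.18 ± 0.06 (adjusted p = 0.366). Of these 5, which belong to 1 gene, 2 had an unadjusted p under 0.05 and a higher mean at high calcium, against 3.95% of all tested probes. Those 2, the U06748 probe and A_44_P482485, had Cy5 signals of 553 to 928 and 449 to 627. The brightest probe, at 21363 to 37186, and its neighbour, at 9585 to 16535, were not under 0.05. Nor was the dimmest, the U06749 probe, at 227 to 326. With the epithelium covariate the 5 differences were 0.06 to 0.14, that of the brightest probe being 0.06, and the U06748 probe had an unadjusted p of 0.0749.

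Muc13, a membrane mucin with epidermal growth factor-like domains, had the smallest difference of the members. Its probe (rn3 chr11:68833106-68836803) read -0.55, -0.18 and 0.29 in high calcium rats and -0.56, -0.26 and 0.05 in low calcium rats, with only rat 2 at high calcium above every low calcium rat. The difference was 0.08 ± 0.10 (SE; 95% interval -0.14 to 0.29; adjusted p = 0.878), and 2 of the 4 slides went each way. It was 0.01 without high calcium rat 2 and 0.13 without high calcium rat 17, the lowest and highest values over single rats left out. The LOC687030 probe, whose file description likens it to mucin 17, read -0.56, 0.07 and 0.32 in high calcium rats and -0.43, -0.06 and 0.38 in low calcium rats. Its difference was 0.03 ± 0.11 (SE; 95% interval -0.20 to 0.27; adjusted p = 0.956). With the mean of the epithelium markers as a covariate Muc13 differed by -0.013 and LOC687030 by -0.10.

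Secreted and membrane mucins were set against each other within each rat, as the log2 ratio of Muc2 minus the mean of Muc1, Muc4 and Muc13. This balance was -0.16, 0.16 and 0.32 (lowest, median and highest) in high calcium rats and -0.32, 0.06 and 0.31 in low calcium rats. The mean was 0.12 ± 0.18 at high calcium and 0.04 ± 0.21 at low calcium (SD, n = 8 and n = 9), so the difference of 0.08 was smaller than the SD of 0.20 within the diets. The highest high calcium rat, 17, exceeded the highest low calcium rat, 5, by a small margin (0.317 against 0.310). Within the 4 slides the difference was -0.05, -0.10, 0.12 and 0.36. It was 0.11 with the LOC687030 probe counted among the membrane mucins, and 0.03 to 0.12 with single rats left out. No test is given, because the balance is a score over the members.

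Both parts of the balance had higher means at high calcium. The membrane mean was 0.01 ± 0.18 at high calcium and -0.14 ± 0.21 at low calcium (SD), a difference of 0.15, against 0.23 for Muc2. Tff3 minus the same membrane mean was 0.15 ± 0.23 at high calcium and 0.00 ± 0.18 at low calcium (SD), a difference of 0.15 within an SD of 0.20. Counted per rat, 7 of the 7 members exceeded their low calcium median in high calcium rats 2, 10, 13 and 18, 6 in rat 17, 5 in rat 9, 4 in rat 14 and 3 in rat 3. In low calcium rats the count was 5 in rats 7, 8 and 15, 3 in rat 6 and 2 in the other 5. These counts describe the rats and use the low calcium rats' own medians.

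**Figure D5:**
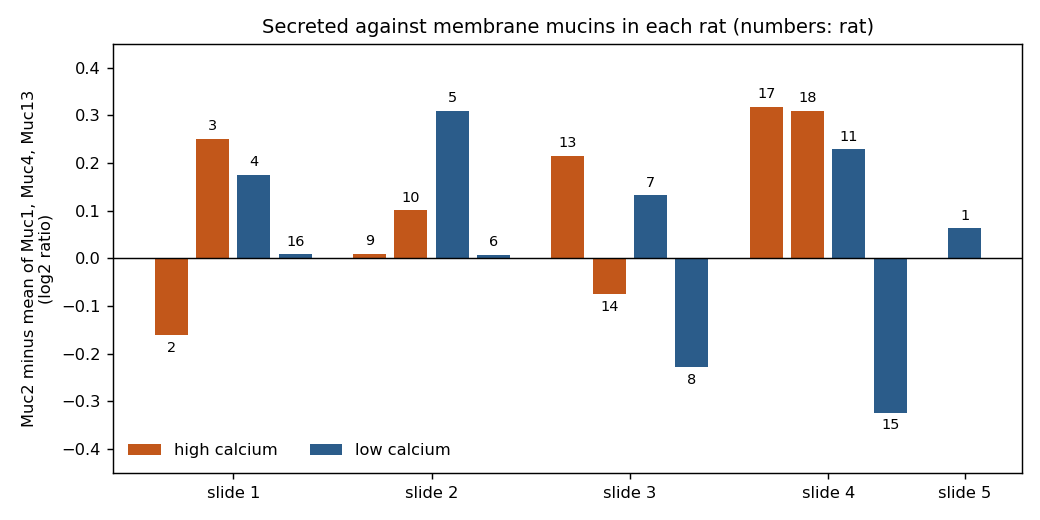
Muc2 minus the mean of Muc1, Muc4 and Muc13 (log2 ratio) in each rat, 1 bar per rat with its number, grouped by slide, high calcium in orange and low calcium in blue. Both diets hold positive and negative bars, from -0.16 to 0.32 at high calcium and from -0.32 to 0.31 at low calcium; slide 5 holds low calcium rat 1 alone.

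Within the diets the members varied together to unequal extent. Over the 21 pairs of members, correlated as residuals around the diet means over 17 rats, 17 had a positive r, between -0.16 and 0.72 in all. Each member stood by its brightest probe. The other probes of Muc4 and Tff3 were not used, so the values for these genes hold for that probe only. Muc4 and Muc13 gave the highest value (Pearson r = 0.72, permutation p = 0.0016, adjusted 0.034; Spearman rho = 0.71, permutation p = 0.0027, adjusted 0.056). It was 0.66 without the 2 rats farthest from the median of Muc4, 0.55 within high calcium rats and 0.89 within low calcium rats. Muc1 with Muc4 (r = 0.66) and Muc4 with Tff3 (r = 0.62) both had an adjusted permutation p of 0.057. Muc2 and Tff3, which share the goblet cell granule, had r = 0.43 and rho = 0.20 (permutation p = 0.15 and 0.48, adjusted 0.32 and 0.72), and r was -0.05 without the 2 rats farthest from the median of Muc2. Within high calcium rats their r was 0.64 and within low calcium rats -0.20. Tff2 and Tff3 had the lowest r of all, -0.16 (rho = -0.18, permutation p = 0.56 and 0.52, adjusted 0.65 and 0.73). For this pair r was 0.31 within high calcium rats and -0.86 within low calcium rats, and 0.10 without the 2 rats farthest from the median of Tff2, so the value over all rats has no steady sign. The difference between the diets in these correlations was not tested.

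The genes most like each of the other members by the same measure, given with no p, differed from member to member. Each was picked as 1 of the 3 closest of 11476 gene names over 17 rats, so a high r follows in part from the search. Muc13 was followed by Duox2, an epithelial enzyme that makes hydrogen peroxide (r = 0.925), the stress kinase gene Mapk14 (r = 0.91) and the tetraspanin gene Cd82 (r = 0.891). Muc4 was followed by Cdc42ep2, an effector of the GTPase Cdc42 (r = 0.911), Golgb1, the Golgi protein giantin (r = 0.902), and Birc1b (r = 0.90). Muc2 was followed by RICS, a GTPase-activating protein (r = 0.843), Entpd5, a nucleotidase of the endoplasmic reticulum (r = 0.83), and Ppp1r15b, a phosphatase subunit that acts on a translation factor (r = 0.789). For Tff3 they were Dnajb6-ps10, Gabarap, of autophagy, and Ptp4a1, a phosphatase (r = 0.894 to 0.832). For Tff1 they were Fabp2, the intestinal fatty acid binding protein, Klk8, a serine protease, and Emp1, a membrane protein (r = 0.886 to 0.87). For Muc1 they were Spa17, Gde1 and Asb13 (r = 0.877 to 0.855).

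Among genes that fold, release or process mucus, 14 of 20 listed were tested, and 10 of them had a higher mean at high calcium, against 54.3% of all tested genes. None passed the adjusted threshold, and 5 had an unadjusted p under 0.05 with a higher mean at high calcium, against 4.13% of all tested genes, with 0 lower. Ern2, the endoplasmic reticulum stress sensor of mucus-secreting cells, differed by 0.18 ± 0.07 (SE; unadjusted p = 0.0122). Clca1, a metalloprotease secreted with mucus, differed by 0.45 ± 0.18 (unadjusted p = 0.0227), and Dmbt1, a secreted scavenger receptor glycoprotein, by 0.36 ± 0.15 (unadjusted p = 0.0285). The others were Mep1b (0.15), the meprin subunit, and Rab27a (0.10), a GTPase of granule transport. In the other direction, Best2, an ion channel of goblet cells, differed by -0.19 ± 0.09 (SE; unadjusted p = 0.0606), and Agr2, which helps to fold MUC2, by -0.11 ± 0.12 (SE; unadjusted p = 0.343). The median of the list was 0.10, against 0.01 over all tested genes, and it was 0.07 without high calcium rat 3. Its mean per rat was -0.01 to 0.16 at high calcium and -0.15 to 0.06 at low calcium, and 6 of 8 high calcium rats lay above every low calcium rat.

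Of the enzymes and carriers that attach, extend and sulphate mucin O-glycans 32 were tested. At high calcium 13 were higher and 19 lower, against 54.3% higher of all tested genes, 1 each way with an unadjusted p under 0.05, against 4.13% and 4.91% of all tested genes, and none passed the adjusted threshold. Gcnt1, which builds the core 2 branch, differed by -0.16 ± 0.06 (SE; unadjusted p = 0.0102), Papss1, which makes the sulphate donor, by 0.16 ± 0.06 (unadjusted p = 0.0149), and Galnt11, which attaches the first sugar, by -0.12 ± 0.06 (unadjusted p = 0.0614). The median of the list was -0.01, and its sign turned under some other background corrections and normalisations.

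Of 13 regulators of goblet cell fate 10 were tested. At high calcium 7 of them were higher and 3 lower, against 54.3% higher of all tested genes. Their median was 0.05 (0.02 without high calcium rat 9). None had an unadjusted p under 0.05, against 4.13% (higher) and 4.91% (lower) of all tested genes. The regulators with the smallest p were the zinc finger genes Gfi1 (0.10 ± 0.05) and Klf4 (0.20 ± 0.11), which act in secretory and goblet cells, and the Notch ligand gene Dll1 (0.11 ± 0.08, SE). Spdef and Foxa3, transcription factors of goblet cell maturation, differed by 0.05 ± 0.08 and 0.01 ± 0.07. Of 12 other mucin genes 6 were on the array and 2 were tested. Muc5ac differed by 0.05 ± 0.05 and Muc20, a membrane mucin, by 0.02 ± 0.10. Muc6, Muc10, Muc15 and Muc19 were not above background on enough arrays to be tested.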

How the data were processed

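Per the labels' protocols, RNA from each rat's scraping was amplified and labelled with Cy5, and the pool with Cy3, with no dye swap. Spot intensities and flags were deposited as scanner output; the software was Agilent Feature Extraction, version 9.5.1.1 per the file headers and 9.5 per the submitters' processing notes. A table of log2 values, deposited for 28213 of 45018 features, was made by the authors in steps not given in the sources used; it followed the log2 Cy5/Cy3 ratio without background subtraction (r = 0.979 across genes and arrays), with every array median at 8.76, so its direction was known and its offset was not, and 0 of its columns were left unused.

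From the intensities, normexp (offset 50) and loess within each array were run in limma 3.58.1 (R 4.3.3). Control spots were dropped, flagged spots set to missing and the spots of a probe averaged, giving 41012 probes; 27101 were above background (Cy5, 8 arrays or more) and were tested with lmFit and eBayes, two-sided, adjusted by Benjamini-Hochberg over all probes. Normalising each array to its own centre hides a change shared by most genes. A gene stands by its brightest probe. The RefSeq table of GRCr8 gave 11957 probes a newer name. Probe positions are those of the files (rn3). Correlations used 100000 permutations within each diet, in scipy 1.17.1.

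On simulated arrays of 26968 probes, with 67 changed at each size, 95.5% of changes of 0.5 were called and 100% of those of 1 and of 2, with 7 unchanged probes called. The simulated noise was drawn for each probe on its own, and no change below 0.5 was planted. The simulation therefore does not show how often differences such as those of the members would be called. Slides 1 to 4 hold 2 rats of each diet and slide 5 holds 1 rat. The labels give each rat a number of its own, so rats were counted as separate animals. The members and lists were chosen with earlier results of these data known. Named genes are every member, the 3 genes with the smallest unadjusted p in each pathway list, and the 3 genes most like each member, with 1 of these and 1 marker gene not reported here; Mep1b, Rab27a, Best2, Agr2, Spdef, Foxa3 and the cell type and stomach markers with values were named after their values were seen. Alternatives covered background, normalisation, filter, variance model, slide, covariates, probe rule and single rats.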

Additional observations from a re-analysis of the deposited data

Results flagged for a closer look

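In 36 groups of values tested for a single rat far from the others of its diet, 2 rats stood apart, and chance alone flags about 1 group in 20. High calcium rat 17 read -0.56 for the LOC687030 probe, with the nearest high calcium rat at -0.08. High calcium rat 10 had a mean of -0.11 over the mucin O-glycosylation genes, with the nearest high calcium rat at -0.06. No member probe had such a rat in either diet.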

How the results depend on the processing

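No paired analysis was possible because the diets share no replicate numbers in the labels; with the slide as a block instead, 7 member probes had an unadjusted p under 0.05, as reported. No member probe passed the adjusted threshold under any of the alternatives run; the smallest adjusted p of a member in any of them was 0.087, for Tff3. The number of all probes past the threshold (0) was 35 with the mean of the smooth muscle markers as a covariate and 1 with that of the epithelium markers. It was 193 without high calcium rat 3, 38 without low calcium rat 16 and 328 without both, the last chosen after seeing the data, and 0 to 193 over single rats left out. The count of member probes at an unadjusted p under 0.05 (7) was 1 with median centring, 4 with the epithelium covariate and 1 with the leukocyte covariate, which was added after seeing the data, and 6 to 9 over single rats left out. For these alternatives the matching share of all tested probes was not counted. With median centring the medians of the mucus partner and goblet fate lists were 0.19 and 0.13 (0.10 and 0.05 with loess), while that of all probes was 0.04. The partner median was 0.074 and 0.079 with the epithelium and leukocyte covariates, and 0.066 to 0.13 over single rats left out, the lowest without high calcium rat 3; the fate median was 0.031 and 0.013, and 0.024 to 0.078, the lowest without high calcium rat 9. The O-glycosylation median (-0.0089) was 0.0097 with no background subtraction, 0.0127 with the scanner software's processed signals, 0.0126 from Cy5 alone, 0.0253 with median centring and 0.0336 from the series matrix. Directions turned for Muc13 (-0.013) and LOC687030 (-0.10) with the epithelium covariate, for Tff2 (-0.0045) with the leukocyte covariate, and for LOC687030 without high calcium rat 18 (-0.0088) or low calcium rat 11 (-0.016), its range over single rats left out being -0.016 to 0.12. The cause of these changes was not tested. Of the other member differences, all kept their direction under every alternative. Over the 32 alternatives, the reported fit not counted, Muc2 and Tff1 had an unadjusted p under 0.05 in 30. For the brighter Tff3 probe the count was 31, for Muc1 16, for Tff2 4, for the brightest Muc4 probe 3 and for Muc13 0. Many of these alternatives refit the same normalised values with a rat left out or a term added. They are not independent of each other, so the counts do not measure how sure a difference is. With the scanner software's processed signals Tff1 differed by 0.50 and Tff2 by 1.30, against 0.25 and 0.87 as reported.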
